A study of Homo sapiens with 6 samples.

Results

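The gene group described here is the interleukin-33 receptor gene IL1RL1 with 9 genes that work around it: its ligand gene IL33, the co-receptor gene IL1RAP, the interleukin-1 receptor gene IL1R1, the interleukin-1α gene IL1A, and the adaptor and kinase genes MYD88, IRAK4, IRAK1, IRAK2 and TRAF6. These 10 genes were taken by name from 17588 uniquely named and 748 repeatedly named genes in the deposited values. IL1RL1 was picked because it was much higher in cells given 8OH-G miR-483, so its difference is given as a description with no test. The other genes were picked by their role. RNA had been sequenced from HUVECs, which are endothelial cells of the umbilical vein, grown from a commercial source. One group (3 libraries) was transfected with 8OH-G miR-483, the microRNA miR-483 with oxidised guanine, and the other (3 libraries) with miR-483. Both groups got the same lipid reagent and the same medium with serum and growth factor, and total RNA was taken on day 2. A scramble control named in the treatment protocol was not analysed here, so a difference between the groups can come from either form. The labels do not say whether libraries came from separate cultures or donors, and the p-values therefore cover library-to-library spread alone, which may be technical.

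IL1RL1 encodes ST2, a receptor chain with extracellular immunoglobulin domains and an intracellular TIR domain. When interleukin-33 (IL-33) binds it, ST2 pairs with the chain encoded by IL1RAP, which the interleukin-1 receptor IL1R1 also uses. The TIR domains then recruit MYD88, which assembles the kinases IRAK4, IRAK1 and IRAK2 and passes the signal through TRAF6 to NF-κB and to stress kinases. IL1RL1 also gives rise to a secreted form of ST2 that binds IL-33 as a decoy. In blood vessels, IL-33 is known as a nuclear protein of resting endothelium that is released when cells are damaged.

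IL1RL1 has 2 annotated transcription starts, and the windows around them are shown because the deposited values hold 1 level for IL1RL1 and do not tell its starts, or its membrane and secreted forms, apart. Each window runs from 250 bases before a start to 50 bases after it, on the plus strand of chromosome 2 in RefSeq sequences of build GRCh38.p14, which is not the build named for the deposited values. The upstream window is chr2:102311313-102311612 and the downstream window is chr2:102337007-102337306, so the starts lie 25694 bases apart. Capitals mark GATAA (or TTATC, its reverse complement), a core bound by GATA factors, and TGANTCA, where N is any base. TGANTCA is a loose form of the core bound by AP-1, which is TGACTCA or TGAGTCA.
IL1RL1 upstream start: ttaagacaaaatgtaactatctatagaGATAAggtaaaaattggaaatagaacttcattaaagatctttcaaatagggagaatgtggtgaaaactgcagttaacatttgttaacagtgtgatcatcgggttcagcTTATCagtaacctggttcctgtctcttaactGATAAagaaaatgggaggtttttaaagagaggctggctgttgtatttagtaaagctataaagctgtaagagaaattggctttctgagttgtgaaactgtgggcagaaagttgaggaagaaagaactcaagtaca
IL1RL1 downstream start: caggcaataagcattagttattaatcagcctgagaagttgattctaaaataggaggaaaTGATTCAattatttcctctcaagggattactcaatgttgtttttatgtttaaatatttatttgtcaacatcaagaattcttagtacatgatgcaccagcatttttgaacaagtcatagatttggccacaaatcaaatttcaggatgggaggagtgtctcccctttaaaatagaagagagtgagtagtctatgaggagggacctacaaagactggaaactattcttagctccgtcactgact
The upstream window held 3 GATAA matches and the downstream window 0, where 22.7% of 35116 annotated windows of this length held at least 1 and 0.891% held at least 3. These shares are over windows of any base composition. The upstream window was 35% G or C and the downstream window 35.7%, against a median of 58.7% over all windows. Windows of like composition were not compared. The downstream window held 1 TGANTCA match, with the letters TGATTCA, which are not the AP-1 core itself. TGANTCA was found in 7.71% of windows, and the upstream window held 0. Each window had 1 CpG, against a median of 14 over all windows. A match describes the letters only, and which start was used in these cells was not tested.

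IL1RL1 stood at 46.0, 43.3 and 69.1 FPKM in the 3 libraries given 8OH-G miR-483, against 7.54, 6.97 and 10.1 FPKM in the 3 given miR-483. The deposited values name no unit and were taken as FPKM, which are corrected for the length of a gene and the size of a library. On that reading, levels of different genes can be set side by side. The groups did not overlap, and replicate 3 was the highest library in each of them. The means were 52.8 ± 14.2 FPKM with 8OH-G miR-483 and 8.21 ± 1.68 FPKM with miR-483 (SD, n = 3 libraries each, as throughout), a ratio of 6.43. The spread between libraries was 26.8% of the mean with 8OH-G miR-483 and 20.5% with miR-483. Among the 12216 genes tested, those that reached 1 FPKM in 3 or more libraries, the level of IL1RL1 was above 86.9% to 92.7% of genes in the libraries given 8OH-G miR-483 and above 44.7% to 54.9% in those given miR-483. Its difference between group means of log2(FPKM + 1) was 2.53, number 10 from the top, where a positive sign means higher with 8OH-G miR-483. Without 8OH-G miR-483 replicate 3, its highest library, the difference was 2.32.

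**Figure D1:**
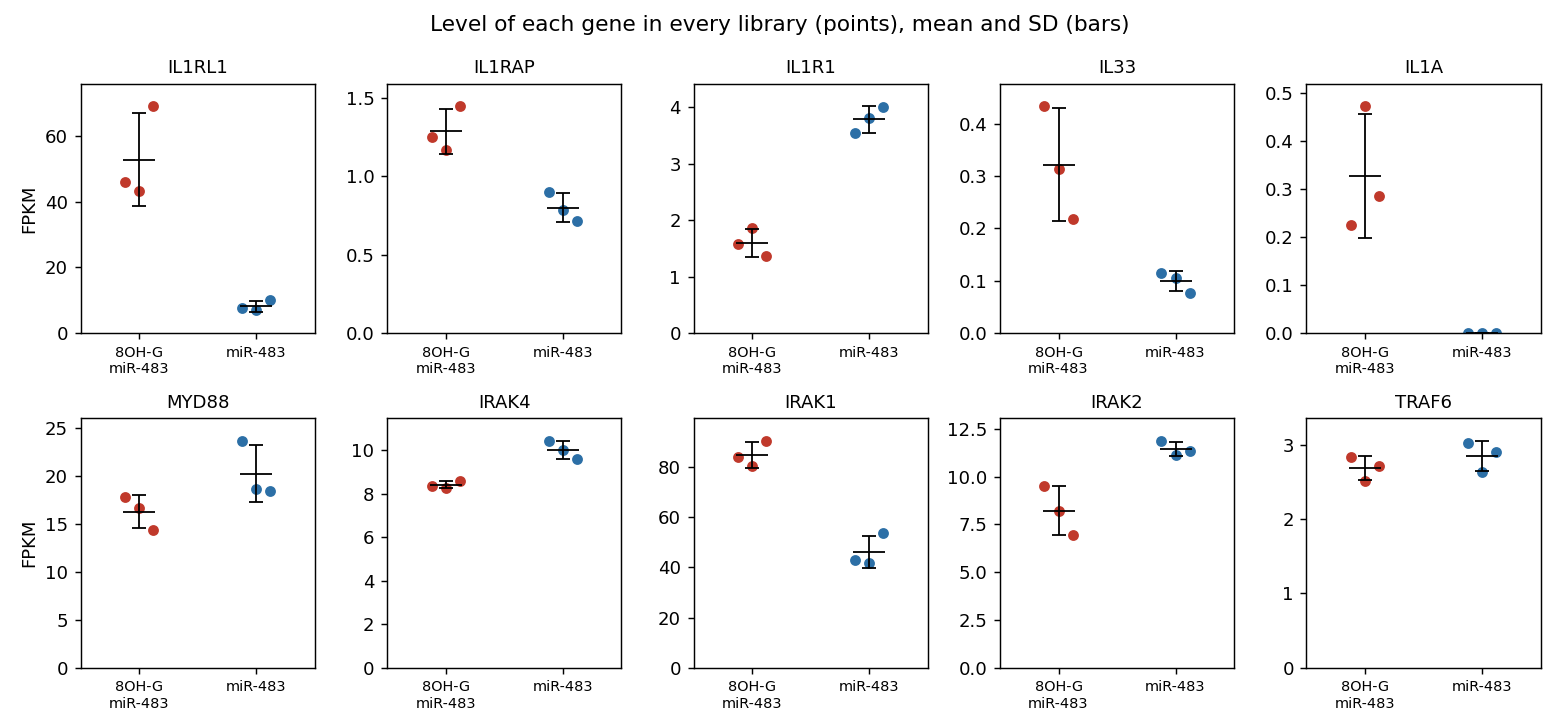
Level in FPKM of each of the 10 genes (1 panel a gene, linear axes from 0 with their own range) in the 3 libraries given 8OH-G miR-483 (red) and the 3 given miR-483 (blue), with the mean and SD as bars. IL1RL1, IL1RAP, IL33, IL1A and IRAK1 are higher in every 8OH-G miR-483 library, IL1R1, MYD88, IRAK4 and IRAK2 are lower in every one, and the TRAF6 values overlap.

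The 3 receptor chains did not move together. IL1RAP, the co-receptor chain, was at 1.25, 1.17 and 1.45 FPKM with 8OH-G miR-483, against 0.898, 0.783 and 0.716 FPKM with miR-483. Every 8OH-G library was above every miR-483 library, and IL1RAP rose by 0.35 on the log2(FPKM + 1) scale (SE 0.087, adjusted p = 0.00939 in limma over all tested genes). It reached the 1 FPKM needed for testing only in the 8OH-G libraries, so a difference was built into its being tested. IL1R1, the receptor chain for interleukin-1, was at 1.58, 1.86 and 1.36 FPKM with 8OH-G miR-483 and at 3.53, 3.81 and 3.998 FPKM with miR-483. IL1R1 was thus lower in all 3 libraries given 8OH-G miR-483, with means of 1.60 ± 0.248 FPKM against 3.78 ± 0.233 FPKM. It fell by 0.88 on the log2(FPKM + 1) scale (SE 0.093, adjusted p = 8.01e-05).

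Set against each other within a library, the receptor chains changed their proportions. The level of IL1RL1 was 29.1, 23.3 and 50.6 times that of IL1R1 with 8OH-G miR-483, against 2.13, 1.83 and 2.53 times with miR-483. This ratio, 34.3 ± 14.4 with 8OH-G miR-483 and 2.16 ± 0.353 with miR-483, contains the value for which IL1RL1 was picked and was not tested. Relative to the co-receptor IL1RAP, IL1RL1 stood at 40.6 ± 6.23 times with 8OH-G miR-483 and 10.5 ± 3.18 times with miR-483. In both groups, then, the IL1RAP level was below that of IL1RL1 in every library. IL1R1 was at 1.27 ± 0.324 times the level of IL1RAP with 8OH-G miR-483, and at 4.80 ± 0.825 times with miR-483.

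**Figure D2:**
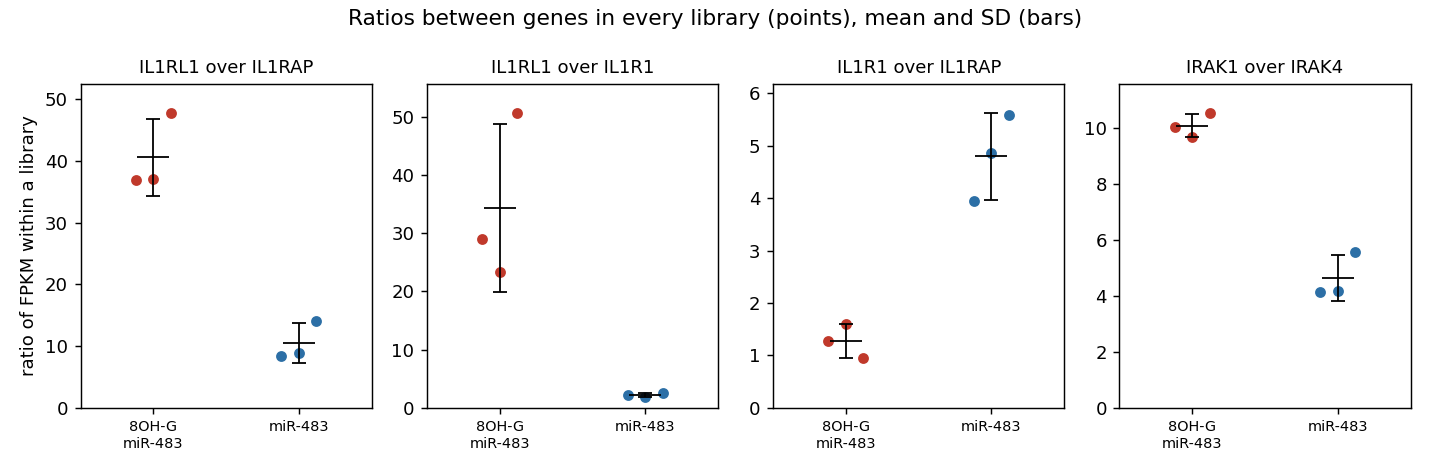
Ratios between the FPKM of pairs of genes within each library (linear axes from 0), for the 3 libraries given 8OH-G miR-483 (red) and the 3 given miR-483 (blue), with mean and SD as bars. The ratio of IL1RL1 to IL1R1 is 23.3 to 50.6 with 8OH-G miR-483 and 1.83 to 2.53 with miR-483.

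The ligands of these receptors were at very low levels in both groups. IL33 was at 0.433, 0.314 and 0.218 FPKM with 8OH-G miR-483, against 0.115, 0.105 and 0.0772 FPKM with miR-483. The groups did not overlap, but no library reached 1 FPKM, so IL33 was outside the test. IL1A, which encodes the interleukin-1α that cells release on injury, was at 0.225, 0.473 and 0.287 FPKM with 8OH-G miR-483 and was listed at 0 in all 3 libraries given miR-483. With no filter on low values, adjusted p was 0.0232 for IL33 and 0.00423 for IL1A, with log2 differences of 0.26 and 0.41. How many fragments these low values rest on is unknown, and no fold is given for IL1A. The genes for interleukin-1β and the interleukin-1 receptor antagonist, IL1B and IL1RN, were not analysed here.

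Among the signalling genes downstream of the receptors, IRAK1 rose while its relatives IRAK2 and IRAK4 fell. IRAK1, a kinase that IRAK4 phosphorylates in the MYD88 complex, was at 84.0, 80.2 and 90.3 FPKM with 8OH-G miR-483, against 43.1, 41.8 and 53.5 FPKM with miR-483. The lowest 8OH-G library was well above the highest miR-483 library, and IRAK1 rose by 0.87 on the log2(FPKM + 1) scale (SE 0.101, adjusted p = 0.000135). IRAK1 was also the most abundant of the 10 genes in every library. IRAK2, which sustains the response after IRAK1, was at 9.48, 8.22 and 6.95 FPKM with 8OH-G miR-483 and at 11.9, 11.1 and 11.3 FPKM with miR-483. It fell by 0.44 (SE 0.101, adjusted p = 0.00575), with no overlap between the groups.

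IRAK4, the kinase nearest to MYD88, was at 8.38, 8.29 and 8.59 FPKM with 8OH-G miR-483, against 10.4, 10.03 and 9.60 FPKM with miR-483. This smaller fall of 0.23 on the log2(FPKM + 1) scale (SE 0.064) had an adjusted p of 0.0160, and of 0.0594 without miR-483 replicate 1. The level of IRAK1 was 10.1 ± 0.421 times that of IRAK4 with 8OH-G miR-483 and 4.63 ± 0.821 times with miR-483. MYD88, the adaptor, was at 17.8, 16.7 and 14.3 FPKM with 8OH-G miR-483 and at 23.6, 18.6 and 18.4 FPKM with miR-483. Its groups did not overlap, but miR-483 replicate 1 stood well above the others, and the log2 difference of -0.29 (SE 0.114) did not pass the test, with an adjusted p of 0.0563. After median-ratio scaling of the libraries MYD88 did pass, with a difference of -0.39 (adjusted p = 0.0192). TRAF6, the ubiquitin ligase that carries the signal on from the IRAK complex, was at 2.84, 2.51 and 2.71 FPKM with 8OH-G miR-483 and at 3.02, 2.63 and 2.90 FPKM with miR-483. Its groups overlapped, and the log2 difference was -0.06 (SE 0.079, adjusted p = 0.523).

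Of the 9 genes other than IL1RL1, 7 could be tested, of which 2 rose, 3 fell and 2 did not pass an adjusted p of 0.05. One of the risers is IL1RAP, which was tested through its 8OH-G libraries alone, and without it 1 of 6 rose and 3 fell. Over all 12216 tested genes, 55.4% passed, 35.0% as higher in the cells given the oxidised form and 20.4% as lower. The groups did not overlap for 9 of the 10 genes, 5 of which were higher and 4 lower in the cells given the oxidised form. These 9 include IL1RL1, which was picked for its difference, and IL33 and IL1A, which were outside the test. Of all tested genes, a set without IL33 and IL1A, 63.3% had groups that did not overlap, 39.7% as higher and 23.6% as lower. A difference was thus common among the genes of these libraries, and no reading is drawn from the counts. The median log2 difference of the 7 genes was -0.23, where that of all tested genes was 0.10.

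In the reference order of protein-coding genes on chromosome 2, IL1RL1 lies within a cluster of related receptor genes, with IL1R1 and IL1RL2 before it and IL18R1 and IL18RAP after it. IL1R1 fell, as given above. IL18R1, the interleukin-18 receptor chain and the next gene after IL1RL1, was at 1.85, 2.16 and 2.24 FPKM with 8OH-G miR-483 and at 1.61, 1.91 and 1.90 FPKM with miR-483. Its groups overlapped, with a log2 difference of 0.14 (SE 0.089, adjusted p = 0.223). IL1RL2, IL18RAP and IL1R2 were not analysed here.

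Of 8 further receptor and binding protein genes of the family, 3 were tested, of which 1 rose, 1 fell and 1 did neither, with a median log2 difference of 0.14. Outside the cluster, the other tested member of the receptor family was SIGIRR, an orphan receptor with a TIR domain that restrains interleukin-1 and IL-33 signalling. SIGIRR was at 20.8, 20.3 and 15.5 FPKM with 8OH-G miR-483, against 49.2, 51.7 and 58.8 FPKM with miR-483. Every 8OH-G library lay below every miR-483 library, and SIGIRR fell by 1.45 on the log2(FPKM + 1) scale (SE 0.117, adjusted p = 1.93e-05). IL18BP, a secreted protein that neutralises interleukin-18, was at 7.01, 6.79 and 8.88 FPKM with 8OH-G miR-483 and at 5.93, 5.23 and 6.22 FPKM with miR-483. It rose by 0.33 (adjusted p = 0.0284), but did not pass after median-ratio scaling (adjusted p = 0.0896), after quantile normalization (0.212), or without 8OH-G miR-483 replicate 3 (0.0687), miR-483 replicate 1 (0.0554) or miR-483 replicate 2 (0.0872). Of 9 further ligand genes, IL18 had a usable value and none was tested. IL18 was at 0.0592 ± 0.0260 FPKM with 8OH-G miR-483 and 0.404 ± 0.0484 FPKM with miR-483, below the level needed for testing. Its groups did not overlap, and with no filter on low values its log2 difference was -0.41 (adjusted p = 0.00120).

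Of 18 genes that act close to the receptor complex, 5 rose, 4 fell and 9 did neither, so that 9 of 18 were called, where 55.4% were called over all tested genes. Their median log2 difference was 0.04. TRAF3, a ubiquitin ligase that can hold back signalling from MYD88 complexes, rose to 13.1 ± 0.727 FPKM with 8OH-G miR-483, against 5.99 ± 1.20 FPKM with miR-483. UBE2N, the ubiquitin-conjugating enzyme that works with TRAF6, was at 45.9 ± 3.34 FPKM with 8OH-G miR-483 and 32.9 ± 2.14 FPKM with miR-483, and rose by 0.47 (adjusted p = 0.00119). The scaffold gene SQSTM1 rose by 0.39. PELI2, a ligase that binds IRAK proteins, fell by 0.91 to 2.20 ± 0.249 FPKM with 8OH-G miR-483, against 5.004 ± 0.242 FPKM with miR-483. SHARPIN and RBCK1, 2 parts of the ligase complex that makes linear ubiquitin chains, fell by 0.37 and 0.31, while RNF31, its catalytic part, had a log2 difference of 0.04 (adjusted p = 0.703).

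Of 16 feedback inhibitors tested, 5 rose, 3 fell and 8 did neither, so that 8 of 16 were called, beside 55.4% of all tested genes. Their median log2 difference was 0.03. NFKBIA, which holds NF-κB in the cytoplasm, fell to 28.7, 22.2 and 23.0 FPKM with 8OH-G miR-483, against 67.8, 67.0 and 77.2 FPKM with miR-483. NFKBIZ, a nuclear relative that interleukin-1 induces, fell to 3.22 ± 0.185 FPKM with 8OH-G miR-483, against 9.34 ± 1.22 FPKM with miR-483. The phosphatase gene DUSP1 fell by 0.38. SOCS3, an inhibitor of cytokine receptor signalling, rose to 22.7, 20.003 and 19.7 FPKM with 8OH-G miR-483, against 5.22, 5.13 and 6.93 FPKM with miR-483. TNFAIP3, the ubiquitin-editing enzyme A20, rose to 2.35 ± 0.646 FPKM with 8OH-G miR-483, against 0.588 ± 0.143 FPKM with miR-483. It reached 1 FPKM only in the 3 libraries given 8OH-G miR-483, so it was tested through them alone. NFKBIB rose by 0.54. IRAK3, the IRAK family member that inhibits the complex, stayed below 1 FPKM in every library and was not tested.

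Of 18 tested kinases and NF-κB genes, 7 rose, 3 fell and 8 did neither. This is 55.6% called, close to the 55.4% of all tested genes. Their median log2 difference was 0.13. IKBKB, a kinase that marks NF-κB inhibitors for destruction, fell to 18.1, 16.3 and 18.1 FPKM with 8OH-G miR-483, against 36.2, 35.0 and 34.6 FPKM with miR-483. Both RELA, the main activating NF-κB subunit, and the p38 substrate kinase gene MAPKAPK2 fell by smaller amounts, 0.32 and 0.23. MAP2K3 and MAP2K6, the kinases that activate p38, rose by 0.84 and 0.77, and JUN rose to 78.6 ± 8.00 FPKM with 8OH-G miR-483, against 48.2 ± 1.99 FPKM with miR-483. CHUK, a kinase related to IKBKB, was at 11.1 ± 0.830 FPKM with 8OH-G miR-483 and 7.68 ± 0.454 FPKM with miR-483. Unlike IKBKB, CHUK rose, by 0.48 (adjusted p = 0.000858).

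Of 19 listed genes whose products process or release ligands of the family, 15 were tested. Of these 15, 6 rose, 3 fell and 6 did neither, 60.0% called against 55.4% of all tested genes. Their median log2 difference was 0.10. CTSC, a protease that activates the neutrophil enzymes able to trim IL-33, rose to 89.5 ± 2.88 FPKM with 8OH-G miR-483, against 47.1 ± 3.71 FPKM with miR-483. HAX1, a protein that binds interleukin-1α precursor, rose by 0.60 and CASP1, the protease that matures interleukin-1β and interleukin-18, by 0.49. NLRP1, an inflammasome sensor, fell to 23.6 ± 0.588 FPKM with 8OH-G miR-483, against 40.4 ± 0.728 FPKM with miR-483. CAPN2 and CAPNS1, subunits of calpain, which cleaves interleukin-1α precursor, fell by 0.42 and 0.35. CAPNS1 did not pass without 8OH-G miR-483 replicate 3 (adjusted p = 0.0559) or miR-483 replicate 3 (0.0508).

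Of 26 listed genes that interleukin-1 or IL-33 can induce in endothelium, 12 were tested. Of these 12, 7 rose, 4 fell and 1 did neither, 91.7% called where 55.4% of all tested genes were. Their median log2 difference was 1.01, where that of all tested genes was 0.10. The list was chosen with earlier results of these data known, so no reading is drawn from this share or this median. The risers include CSF3, a neutrophil growth factor gene that reached 1 FPKM in the 8OH-G libraries alone, and without it 6 of 11 rose, 4 fell and the median was 0.66. The chemokine gene CXCL8 was at 29.2, 24.8 and 37.0 FPKM with 8OH-G miR-483, against 1.02, 0.968 and 1.90 FPKM with miR-483, and CXCL1 was at 10.6, 8.00 and 11.5 FPKM with 8OH-G miR-483, against 0.863, 0.989 and 1.45 FPKM with miR-483. They rose by 3.77 and 2.39 on the log2(FPKM + 1) scale, which is compressed near 1 FPKM, and by 4.49 and 3.09 with a pseudocount of 0.1. CCL2, which draws monocytes, was at 553, 445 and 276 FPKM with 8OH-G miR-483 and at 101, 172 and 172 FPKM with miR-483, and rose by 1.498 (SE 0.320, adjusted p = 0.00816). ICAM1, a leukocyte adhesion molecule, fell to 10.5, 8.53 and 10.5 FPKM with 8OH-G miR-483, against 17.0, 16.2 and 17.3 FPKM with miR-483. PTGS2, the inducible cyclooxygenase, and the transcription factor gene IRF1 fell by 0.66 and 0.56. Reads of CXCL1 may have been counted for its near-identical neighbours CXCL2 and CXCL3 or the reverse. In these lists, genes below the filter or without a uniquely named value were left out.

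**Figure D3:**
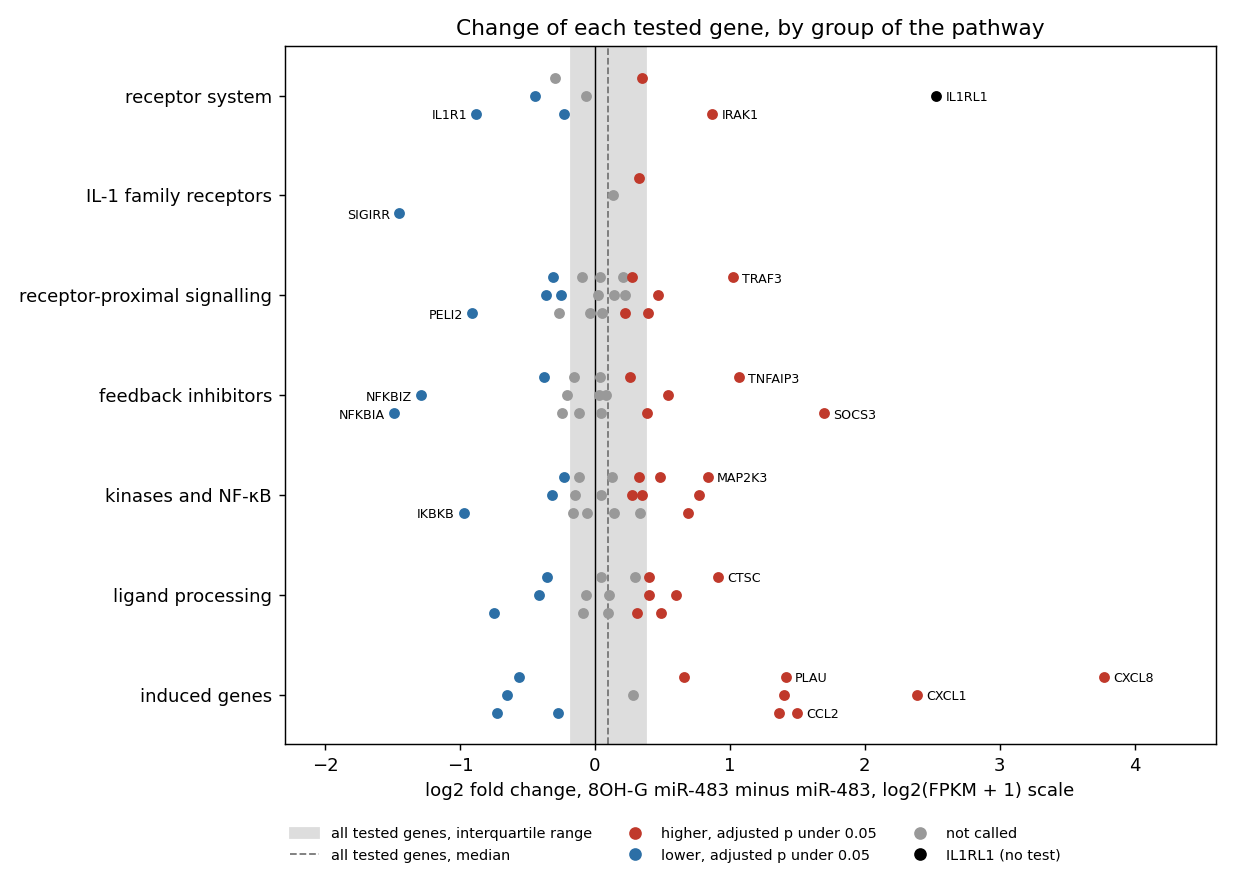
Change of each tested gene, as the mean log2(FPKM + 1) with 8OH-G miR-483 less that with miR-483, for the receptor system (top) and the lists of related genes, each point 1 gene, coloured by the limma call. The grey band is the interquartile range of all tested genes (-0.18 to 0.38) and the dashed line their median (0.10). IL1RL1 lies at 2.53, SIGIRR at -1.45 and CXCL8 at 3.77.

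The 5 tested genes whose pattern over the 6 libraries lay nearest to that of IL1RL1 were RGS4, CLSPN, ANLN, DKK1 and FST. Likeness was the Euclidean distance between log2(FPKM + 1) values centred on each gene's mean. Since the pattern is set mostly by the group difference, these are genes with a like difference. RGS4, a regulator of G-protein signalling, was nearest at a distance of 0.276, with 76.7, 67.6 and 99.8 FPKM with 8OH-G miR-483 and 11.9, 10.8 and 19.2 FPKM with miR-483. Like IL1RL1, all 5 of these genes were highest in replicate 3 of each group. The distance runs over all 6 libraries, so their choice favoured this likeness. The distances were 0.283 for CLSPN, a replication checkpoint adaptor, and 0.327 for ANLN, an actin-binding protein of dividing cells. They were 0.339 for the Wnt inhibitor gene DKK1 and 0.391 for FST, which encodes the activin-binding protein follistatin. FST was at 0.492, 0.386 and 0.561 FPKM with miR-483, so it was tested through its 8OH-G libraries alone.

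**Figure D4:**
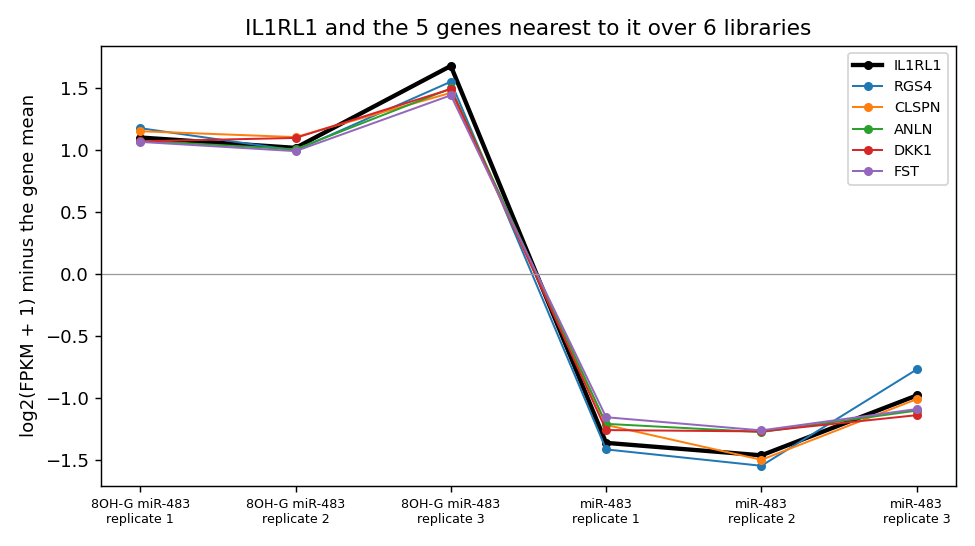
Log2(FPKM + 1) minus each gene's mean over the 6 libraries, for IL1RL1 (black) and the 5 genes nearest to it, with the libraries given 8OH-G miR-483 on the left. All 6 genes have their highest value in 8OH-G miR-483 replicate 3, a likeness that the choice by distance favours.

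ST2 is best known on mast cells and type 2 lymphocytes, so markers of such cells were measured beside IL1RL1. Of 7 mast cell markers, KIT and CPA3 were measured, and both were called higher, though each reached the 1 FPKM needed for testing only in the 8OH-G libraries. KIT, a receptor kinase also made by some endothelial cells, was at 5.07, 5.29 and 3.37 FPKM with 8OH-G miR-483 and at 0.264, 0.317 and 0.363 FPKM with miR-483. CPA3, a mast cell protease, was at 2.05, 1.81 and 1.01 FPKM with 8OH-G miR-483 and at 0.222, 0.135 and 0.501 FPKM with miR-483. Both were lowest in replicate 3 among the 8OH-G libraries, where IL1RL1 was highest. Among the miR-483 libraries both were highest in replicate 3, as IL1RL1 was. The summed level of these markers was 4.38 to 7.12 FPKM with 8OH-G miR-483 and 0.452 to 0.864 FPKM with miR-483, and the other 5, among them the tryptase genes, were not analysed here. Of 7 T cell and innate lymphoid markers, IL7R was called higher and RORA did not pass, with sums of 5.52 to 6.86 FPKM with 8OH-G miR-483 and 3.20 to 5.20 FPKM with miR-483. IL7R was at 1.61, 1.61 and 2.49 FPKM with 8OH-G miR-483 and at 0.192, 0.106 and 0.474 FPKM with miR-483, so it too was tested through its 8OH-G libraries alone, and like IL1RL1 it was highest in replicate 3 of each group. The part of such cells in the IL1RL1 difference was not tested. In bulk samples fewer cells of a type and less RNA per cell cannot be told apart.

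The endothelial label was borne out by 8 of 8 defining markers, all expressed in both groups. Of these 5 fell and 0 rose, with sums of 1219 to 1427 FPKM with 8OH-G miR-483 and 1944 to 1981 FPKM with miR-483. Of 6 leukocyte and myeloid markers 3 were measured, with LYZ and CD68 called lower (LYZ reached 1 FPKM only with miR-483). These 3 summed to 45.2 to 49.6 FPKM with 8OH-G miR-483 and 52.5 to 56.7 FPKM with miR-483. Most of the sum was LAPTM5, at 40.1 ± 1.58 FPKM with 8OH-G miR-483 and 38.8 ± 3.22 FPKM with miR-483, which was not called. LYZ was at 0.109 ± 0.0955 FPKM with 8OH-G miR-483 and 4.03 ± 0.339 FPKM with miR-483. Of 7 fibroblast and mural markers 5 were measured, with COL3A1 called lower, and sums of 3.46 to 4.51 FPKM with 8OH-G miR-483 and 4.30 to 4.54 FPKM with miR-483. LUM, which was below 1 FPKM and outside the test, was at 0.472, 0.534 and 0.392 FPKM with 8OH-G miR-483 and at 0.125, 0.0847 and 0 FPKM with miR-483, with an adjusted p of 0.00164 when no filter was used. DCN was at 0.307 ± 0.203 FPKM with 8OH-G miR-483 and 0.0856 ± 0.0459 FPKM with miR-483, and its groups overlapped. Eosinophil, basophil and epithelial markers were not analysed here.

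The promoter windows of the 10 genes differed in base composition. Those of IL1RL1 and IL33 had 1 to 3 CpG and those of IL1A had 8, against a median of 14 over all annotated windows. The windows of IL1RAP, MYD88, IRAK4, IRAK1, IRAK2 and TRAF6 had 25 to 52. IL1R1 had 4 windows, with 4, 7, 8 and 40 CpG, and GATAA in 2 of them. Besides IL1RL1, TGANTCA was present in both windows of IL1A and in that of IRAK1, there as TGACTCA or TGAGTCA. IL1RL1, IL33 and IL1A, with windows below that median, were higher in every 8OH-G miR-483 library, IL1RL1 having been picked for this. Of the genes with only CpG-rich windows, IL1RAP and IRAK1 were higher in every such library. MYD88, IRAK4 and IRAK2 were lower in every one, and the TRAF6 values overlapped. IL1R1, with windows of both kinds, was lower. A link between CpG number and direction was not tested.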

How the data were processed

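The members and lists were chosen with earlier results of these data known. Per the submitters' processing notes, the tools were cutadapt, STAR, HTSeq and DESeq2 and the build hg19, with neither versions nor roles given. The deposited values (1 column, 20792 rows a library) were taken as FPKM made by the authors. Labels and headers name no unit; a library's values add up to between 1396537 and 1687283, which TPM and CPM cannot. Depth is unknown, so counting error is not given. Mitochondrial rows held 71.3% to 76.6% of each total.

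Names on several rows (748) were left out. The 12216 genes that reached 1 FPKM in 3 or more libraries were fitted as log2(FPKM + 1) by limma 3.58.1 in R 4.3.3 with a trended, robust prior and no covariate beside the group. P-values were adjusted by Benjamini-Hochberg over all of them, at a threshold of 0.05. The fit was tested on simulated data. All 10 genes are named, with every tested receptor of the family, up to 3 called genes a direction and list with groups that do not overlap, and the 5 genes nearest to IL1RL1. RNF31, CHUK, IRAK3, IL18, CSF3 and the cell markers lie outside this rule and were named after their values were seen. Promoter sequences are RefSeq's, found for all 10 genes. Planned seed match and protein comparisons were not run. Figures were drawn with matplotlib 3.10.9 in Python 3.11.15.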

Additional observations from a re-analysis of the deposited data

How the results depend on the processing

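The alternatives were leaving out each library in turn, pseudocount 0.1, other filters, both scalings, the replicate block, repeated names and plain variance shrinkage. All kept the direction of IL1RL1 and of the 45 tested genes named by rule. Genes named outside the rule, CHUK and the low and marker genes among them, were not checked. The IL1RL1 log2 difference ran from 2.32 (without 8OH-G miR-483 replicate 3) to 2.67 (without miR-483 replicate 3). Without a filter, 4 of the genes other than IL1RL1 were called higher in place of 2, because IL33 and IL1A were then tested. The lower genes numbered 4 in place of 3 with either scaling and with the replicate block, where MYD88 passed (adjusted p = 0.0104 with the block), and 2 without miR-483 replicate 1. The share of higher genes among all calls was 63.2% as deposited, 51.8% with median-ratio factors (shift of the median gene -0.09) and 49.0% with quantile normalization (shift -0.11). The pathway lists together held 31 higher and 18 lower genes as deposited, 28 and 26 with median-ratio factors, and 25 and 26 with quantile normalization. Leaving out genes that reached 1 FPKM in 1 group alone, chosen after seeing the data, left 1 higher gene of the receptor system in place of 2, and 29 higher pathway genes. Of 630 checks of named genes, 618 kept their call, 3 gained it and 9 lost it; the cause was not tested. CCL2 did not pass with the replicate block (adjusted p = 0.0748). Same-numbered libraries had correlations of deviations of 0.025, 0.339 and 0.009, and libraries of other numbers had -0.27 to 0.24. With 3 libraries in each group, these values neither show nor exclude that the numbers pair the libraries. With the block 4635 genes were higher and 2677 lower, against 4279 and 2493 without it. Unknown depth limits IL33, IL1A and IL18 most.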
